A study of Mus musculus with 45 samples.

Results

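The glycolysis and hypoxia response genes followed here are 34 mouse genes, chosen by symbol: enzymes of the glycolytic chain, the glucose and lactate carriers that serve it, regulators of its flux, and genes best known as targets of the hypoxia response. They were found in the deposited tables by gene name. The 34 symbols gave 35 rows of the 35272 genes in the joined tables, because Aldoa is listed under a pair of identifiers, ENSMUSG00000030695 and a small neighbour, ENSMUSG00000114515, which is given below as the second identifier. All 35 rows were listed in all 9 tables and passed the filter on low counts in every comparison.

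Poly-A RNA was sequenced from forelimb buds of CD1 mouse embryos of gestation day 13, cultured in bottles. Limbs received the solvent DMSO (control), 1 µM bisphenol AF (BPAF) or 5 µM BPAF, and were collected after 3, 24 or 48 h. BPAF is a fluorinated relative of bisphenol A, used in making plastics. Every dose at every time is a group of 5 libraries, 45 in all. All groups shared the strain, the culture medium and a gas mixture with 50% oxygen, blown into the bottles before the compound or DMSO was added. Forelimbs were pooled, male and female together, and hold many cell types, so fewer cells of a type and less RNA per cell cannot be told apart in any result below.

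Glycolysis splits glucose into pyruvate, and lactate dehydrogenase turns pyruvate into lactate when oxygen is short or glycolysis runs fast. When oxygen falls, the prolyl hydroxylases stop marking the hypoxia-inducible factors (HIF) for destruction, and HIF then raises the transcription of most glycolytic enzymes, of glucose and lactate carriers and of genes for blood vessel growth, pH control and mitophagy. In the limb bud, the cartilage core is poor in vessels, and HIF-1 is known to be needed there for chondrocyte survival.

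The libraries held between 14901842 and 25154115 reads assigned to genes, with a median of 17820524. Limb identity genes matched the labelled tissue, with a mean of 265 CPM (counts scaled to library size) for the forelimb factor Tbx5 and 479 CPM for the limb mesenchyme factor Prrx1, against 22.5 CPM for Tbx4 and 4.16 CPM for Pitx1, both hindlimb factors. A characteristic of 1 µM 3 h replicate 5 names another bisphenol, and the library was kept in its group by its title. For replicates 1 and 2 of the 1 µM group at 48 h, title and library code give swapped numbers, and the title's is used here. The labels do not say that replicates came from separate litters or days, and every p-value below is set against a spread between libraries that may be technical.

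HIF binds DNA at the core motifs ACGTG and GCGTG, so the 250 bases before each gene's start in RefSeq (GRCm38.p6) were searched for both motifs on both strands. Of the 34 symbols, 32 had at least 1 such window and 50 windows in all, several of which overlap. ACGTG lay in 46% of these windows, against 16.6% of all 32851 windows of the genome, and GCGTG lay in 50%, against 28.2%. Either motif lay in 76% of the members' windows, against 38.6% of all, and 3 genes held neither in any window. A match describes the letters only, and CACGTG counts on both strands. The 6 windows shown were picked after values were seen, as examples of hypoxia targets, a carrier and enzymes whose values are given below. Among them is Pfkm, which stayed level in the single libraries that stood apart from their groups, but differed between groups at 48 h. The windows were not chosen as the largest changes, and Aldoa and Gapdh, which had the smallest p at 48 h among the enzymes, are not shown. They are chr8:45999851-46000100 (minus strand) for Ankrd37, chr7:138909507-138909756 (minus) for Bnip3, chr11:120948817-120949066 (plus) for Slc16a3, chrX:106186850-106187099 (plus) for Pgk1, chr7:46845554-46845803 (plus) for Ldha and chr15:98092339-98092588 (plus) for Pfkm, written 5′ to 3′ with the motif matches in capitals.
Ankrd37: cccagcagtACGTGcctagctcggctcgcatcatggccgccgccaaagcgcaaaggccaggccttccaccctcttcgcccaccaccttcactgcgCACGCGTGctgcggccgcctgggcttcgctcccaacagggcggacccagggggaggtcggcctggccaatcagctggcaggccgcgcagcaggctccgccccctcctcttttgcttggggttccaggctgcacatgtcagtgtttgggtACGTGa
Bnip3: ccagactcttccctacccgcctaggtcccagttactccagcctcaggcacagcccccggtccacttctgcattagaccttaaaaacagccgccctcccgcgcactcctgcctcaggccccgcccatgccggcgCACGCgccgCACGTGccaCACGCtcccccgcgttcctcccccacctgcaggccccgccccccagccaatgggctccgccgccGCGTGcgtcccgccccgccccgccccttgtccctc
Slc16a3: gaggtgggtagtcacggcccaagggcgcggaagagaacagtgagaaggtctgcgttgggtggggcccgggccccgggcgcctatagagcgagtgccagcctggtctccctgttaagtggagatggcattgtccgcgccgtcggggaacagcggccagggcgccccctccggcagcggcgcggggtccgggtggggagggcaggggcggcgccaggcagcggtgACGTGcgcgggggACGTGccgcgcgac
Pgk1: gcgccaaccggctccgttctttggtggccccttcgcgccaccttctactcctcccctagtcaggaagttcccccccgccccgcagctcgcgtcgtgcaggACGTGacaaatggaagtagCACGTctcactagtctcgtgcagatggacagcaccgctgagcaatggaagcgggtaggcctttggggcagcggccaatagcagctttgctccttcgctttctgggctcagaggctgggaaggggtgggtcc
Ldha: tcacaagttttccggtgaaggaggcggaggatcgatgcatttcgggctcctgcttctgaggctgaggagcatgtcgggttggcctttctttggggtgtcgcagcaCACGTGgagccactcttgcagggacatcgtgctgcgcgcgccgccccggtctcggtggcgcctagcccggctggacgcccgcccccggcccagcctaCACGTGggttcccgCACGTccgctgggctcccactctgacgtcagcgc
Pfkm: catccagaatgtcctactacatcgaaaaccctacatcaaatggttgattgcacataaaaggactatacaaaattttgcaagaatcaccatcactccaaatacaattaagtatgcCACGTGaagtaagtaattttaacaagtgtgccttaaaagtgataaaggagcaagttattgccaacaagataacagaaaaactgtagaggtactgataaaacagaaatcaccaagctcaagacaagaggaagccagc

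The Ankrd37 window holds ACGTG close to its upstream end and again just before the gene's start, with both orientations of GCGTG overlapping between them. The Ldha window shown, whose start is RefSeq's, holds CACGTG in a pair of places. The bases shortly after its start were not found near the beginning of any GENCODE transcript of the gene. For the other Ldha window, at chr7:46846832-46847081 (plus strand), they were found there, and that window holds 0 matches to ACGTG and 1 to GCGTG. Of the 4 Pfkm windows the one shown is the farthest upstream and holds CACGTG, and the others hold 1, 0 and 0 matches to ACGTG and 1, 1 and 0 to GCGTG. No window was found for Slc2a3 and Ndrg1.

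The genes spanned a wide range of levels. Per kilobase of gene length and averaged over all 45 libraries, Gapdh, the glyceraldehyde-3-phosphate dehydrogenase, stood highest at 210.9 CPM per kb, followed by the pyruvate kinase Pkm at 136.2, the aldolase Aldoa at 130.5, the triose phosphate isomerase Tpi1 at 110.5, the phosphoglycerate kinase Pgk1 at 108.8 and the lactate dehydrogenase Ldha at 105.3 CPM per kb. Among the hypoxia targets the collagen prolyl hydroxylase P4ha1 led with 36.77 CPM per kb and the angiogenic factor Vegfa followed with 28.69 CPM per kb. The lowest were the carbonic anhydrase Car9 at 1.273 and the peptide hormone Adm at 0.97 CPM per kb. Of the isozymes, Hk1 (11.7 CPM per kb) stood above Hk2 (5.78), Pfkm (33.34) above Pfkl (18.06) and Pfkp (1.522), and Aldoa far above Aldoc (1.343). The order of Pfkm and Pfkl rests on the deposited gene lengths. Without that division Pfkl averaged 120.5 CPM and Pfkm 111.4 CPM. Gapdh, Pgk1, Pgam1, Ldha, Aldoa and other enzymes have near-identical processed pseudogenes in the mouse, and how reads that fit several places were counted is not given in the sources used here, so their exact levels are uncertain.

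A few libraries stood apart from their groups in these genes. The 35 rows took between 0.350% and 0.721% of a library's reads. The largest share was in control 24 h replicate 5 (0.721%, 95% Wilson interval 0.718 to 0.725%), then in 1 µM 48 h replicate 2 (0.693%, 0.689 to 0.697%). In 5 µM 24 h replicate 4 it was 0.602% (0.598 to 0.606%), the highest of its group. These intervals cover counting error only.

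In control 24 h replicate 5, 34 of the 35 rows were higher than in any other control library of that time, where 28.3% of all genes tested had that library highest. The median member stood at 1.761 times the median of the other 4 libraries, and 25 members exceeded 1.5 times, as did 0.797% of all genes. In 5 µM 24 h replicate 4, 31 of 35 rows were highest (21.6% of all genes), the median ratio was 1.702, and again 25 members exceeded 1.5 times (0.75% of all genes). In 1 µM 48 h replicate 2, 32 of 35 rows were highest (21.1% of all genes), with a median ratio of 1.573 and 19 members over 1.5 times (0.6% of all genes). Enzymes and hypoxia targets were both high in each of these libraries, with 15, 13 and 15 of 16 rows of enzymes and 13, 13 and 12 of 13 hypoxia targets highest.
The hypoxia targets and carriers moved further than the enzymes. In 5 µM 24 h replicate 4, Bnip3, a mitophagy gene of the BH3-only family, stood at 55.8 CPM, against 18.3, 21.6, 27.4 and 19.3 CPM in the other 5 µM libraries. Ankrd37, an ankyrin repeat protein known mainly as a hypoxia-induced transcript, stood at 7.98 CPM there, against 0.435, 0.372, 1.65 and 0.534 CPM, which is 16.5 times their median. Pfkfb3, whose product makes the allosteric activator of phosphofructokinase, reached 61.6 CPM, against 14.9, 17.6, 22.8 and 16.8 CPM. In 1 µM 48 h replicate 2 the largest ratios to the median of the other libraries were those of Adm (5.31), Ankrd37 (4.27), the glucose carrier Slc2a1 (2.82) and the stress gene Ndrg1 (2.68). In control 24 h replicate 5 they were those of the lactate exporter Slc16a3 (2.77), Ankrd37 (2.69), Ndrg1 (2.64) and Bnip3 (2.56). The median ratio over the 13 hypoxia targets was 2.034 in control 24 h replicate 5, 2.263 in 5 µM 24 h replicate 4 and 1.904 in 1 µM 48 h replicate 2, and over the 16 rows of enzymes 1.665, 1.579 and 1.393.

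A few members stayed level in all of these libraries. Pfkm, the muscle form of phosphofructokinase, stood at 1.07, 1.00 and 1.05 times the median of the others in control 24 h replicate 5, 5 µM 24 h replicate 4 and 1 µM 48 h replicate 2. The bifunctional enzyme Pfkfb4 stood at 1.15, 1.03 and 0.995 times, and the second Aldoa identifier at 0.96, 1.05 and 1.09 times. Car12, a carbonic anhydrase, and Mxi1, a MYC antagonist, were between 1.13 and 1.25 times. The oxygen sensing genes did not follow as a group: of 11 genes of the HIF system, such as Hif1a, Epas1, Arnt and Vhl, 1, 3 and 3 were highest in these libraries.

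**Figure D1:**
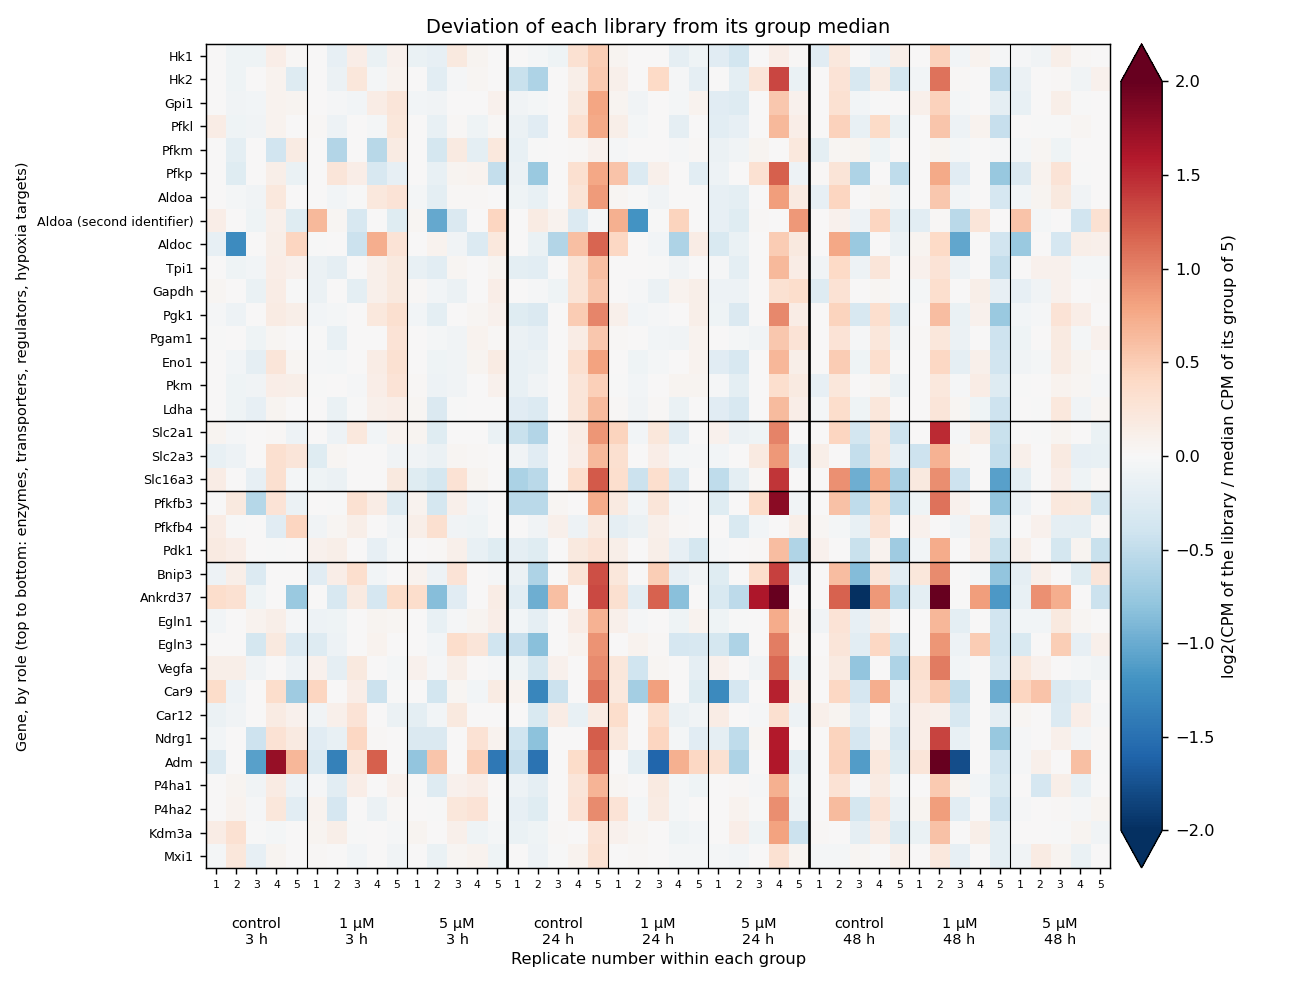
Heat map of the 35 rows, grouped by role, in the 45 libraries, as log2 of the library's CPM over the median of its group. Control 24 h replicate 5, 5 µM 24 h replicate 4 and 1 µM 48 h replicate 2 stand out as columns, with 34, 31 and 32 of 35 rows highest in their group. In these columns Pfkm, Pfkfb4 and the second Aldoa identifier stay between 0.96 and 1.15 times the median of the other libraries.

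Other genes moved with these libraries to a different extent. Of 25 further hypoxia targets outside the 34 genes, 16 were highest in control 24 h replicate 5, 23 in 5 µM 24 h replicate 4 and 17 in 1 µM 48 h replicate 2. Of 11 erythroid genes, 9, 0 and 4 were highest, and haemoglobin genes took 0.251% of the reads of control 24 h replicate 5. Their share was 0.126% in 5 µM 24 h replicate 4. It was 0.253% in 5 µM 24 h replicate 5, where the median member stood at 1.059 times the median of the other libraries. Of 12 endothelial genes 9, 6 and 3 were highest, of 16 chondrocyte genes 9, 10 and 0, of 12 macrophage genes 7, 0 and 2, and of 24 skeletal muscle genes 2, 2 and 1. 5 µM 24 h replicate 4 was also the shallowest library. The part of depth or cell make-up in these values was not tested.

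The spread within groups was widest in the groups that hold the libraries that stand apart. Over the 30 members that averaged 10 CPM or more, the median coefficient of variation at 3 h was 8.10% in control, 9.21% in 1 µM and 8.34% in 5 µM limbs. At 24 h it was 28.0% in control, 7.22% in 1 µM and 29.8% in 5 µM limbs, and at 48 h 17.8% in control, 24.9% in 1 µM and 7.57% in 5 µM limbs. Over all 10669 genes at that level the median lay between 6.62% and 10.01%. Control limbs at 48 h hold none of the libraries that stand apart, yet their 17.8% lay above the 8.68% of all genes in that group. The part of single libraries in the spread was not tested. In 1 µM limbs at 48 h the hypoxia targets varied by 33.6% and the enzymes by 18.0%, while in 5 µM limbs at 48 h they varied by 7.95% and 6.58%.

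**Figure D2:**
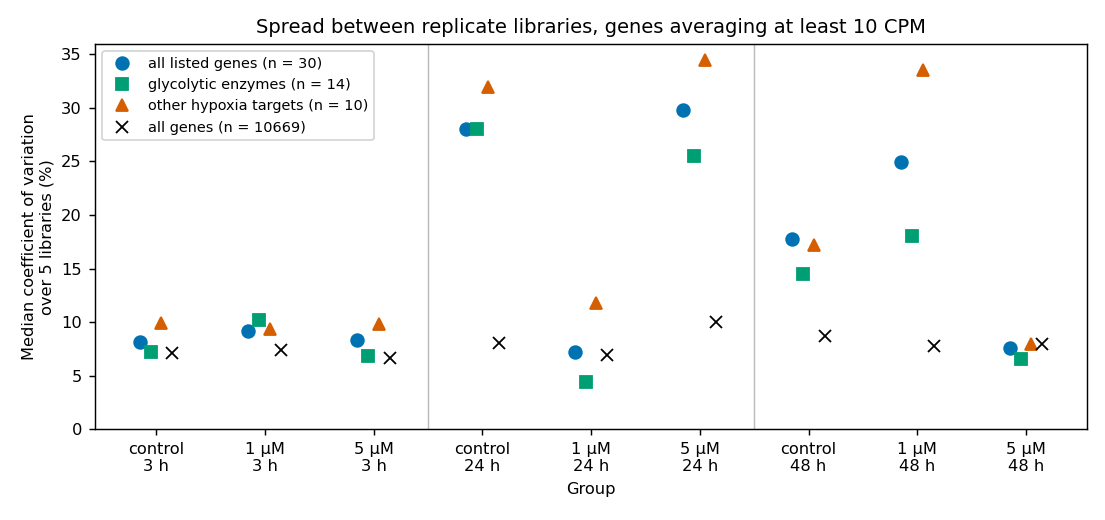
Median coefficient of variation between the 5 libraries of each group, in %, for the members at 10 CPM or more, for the enzymes and the hypoxia targets among them, and for all genes at that level. All genes stay between 6.62% and 10.01%, while the members reach 28.0% in control 24 h, 29.8% in 5 µM 24 h and 24.9% in 1 µM 48 h.

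After 48 h, glycolytic enzymes were lower in 5 µM limbs than in control limbs. Of the 35 rows, 15 were called lower and 0 higher by edgeR's quasi-likelihood test at a Benjamini-Hochberg adjusted p under 0.05, taken over all genes, where 7.16% of the 16345 genes tested were called and 4.42% were called lower. In all, 30 of 35 log2 fold changes were negative, with a median of -0.32, against 0 to 2 decimals over all genes. The calls fell on 12 of 16 rows of enzymes, 1 of 3 carriers, 0 of 3 flux regulators and 2 of 13 hypoxia targets. Among the called enzymes log2 fold changes ran from -0.28 (Pfkm) to -0.90 (Aldoc).

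The smallest p among the enzymes belonged to Aldoa, the aldolase of muscle and most embryonic tissue. It stood at 304, 330.4, 363, 302 and 317 CPM in 5 µM limbs, against 410.2, 623, 462, 479.7 and 445 CPM in control limbs. Every 5 µM library lay below every control library, and the difference was called (log2 -0.60 ± 0.09, adjusted p 0.000390 by edgeR, n = 5 each; here and below ± is the SE of a log2 fold change and the SD of a CPM mean). Gapdh stood at 549, 585, 654, 617 and 624.5 CPM in 5 µM limbs, against 660.3, 963, 792, 811 and 785 CPM in control limbs. Its groups did not overlap either (log2 -0.42 ± 0.08, adjusted p 0.00286 by edgeR).

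Pfkm, which did not follow the libraries that stand apart, stood at 104, 110.3, 101, 108 and 107 CPM in 5 µM limbs, against 113, 133, 136, 122 and 130.2 CPM in control limbs. The groups were separate and the difference was small (log2 -0.28 ± 0.06, adjusted p 0.00718 by edgeR). Pkm stood at 505, 509.8, 536, 524 and 502 CPM in 5 µM limbs, against 564, 739, 629.5, 657 and 579.6 CPM in control limbs. The 5 µM libraries lay close together and below all control libraries (log2 -0.32 ± 0.07, adjusted p 0.00723 by edgeR).

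Ldha, the step to lactate, stood at 316, 314, 365, 301 and 323 CPM in 5 µM limbs, against 375, 490.5, 363, 452 and 386 CPM in control limbs. The highest 5 µM library reached just past the lowest control library (log2 -0.37 ± 0.08, adjusted p 0.00794 by edgeR). Pgk1, the first step that yields ATP, stood at 156, 159, 197, 178 and 162 CPM in 5 µM limbs, against 235, 319, 188, 295 and 197 CPM in control limbs. Control replicates 1, 2 and 4 lay well above the 5 µM libraries, replicate 3 lay among them and replicate 5 at their upper end (log2 -0.55 ± 0.12, adjusted p 0.00895 by edgeR).

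The other called enzymes were Hk1, which traps glucose in the cell, the glucose phosphate isomerase Gpi1, the liver-type phosphofructokinase Pfkl, the brain-type aldolase Aldoc, Tpi1 and the enolase Eno1, with log2 fold changes from -0.30 to -0.90 and adjusted p from 0.0127 to 0.0432 by edgeR. Of the 10 fits that each left out 1 library, Gpi1 was called in 10, Hk1 and Eno1 in 9, Pfkl in 8, Tpi1 in 4 and Aldoc in 1 (log2 -0.65, adjusted p 0.124 without control replicate 2). The other 6 called enzymes were called in all 10. Not called were Hk2 (-0.32 ± 0.11), Pfkp (-0.38 ± 0.15), the mutase Pgam1 (-0.13 ± 0.07) and the second Aldoa identifier (0.38 ± 0.24), with adjusted p from 0.109 to 0.438. In 8 of the 35 rows, 7 enzymes and Ndrg1, the groups did not overlap, all lower in 5 µM limbs, where 3.88% of all genes tested were separate in that direction.

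**Figure D3:**
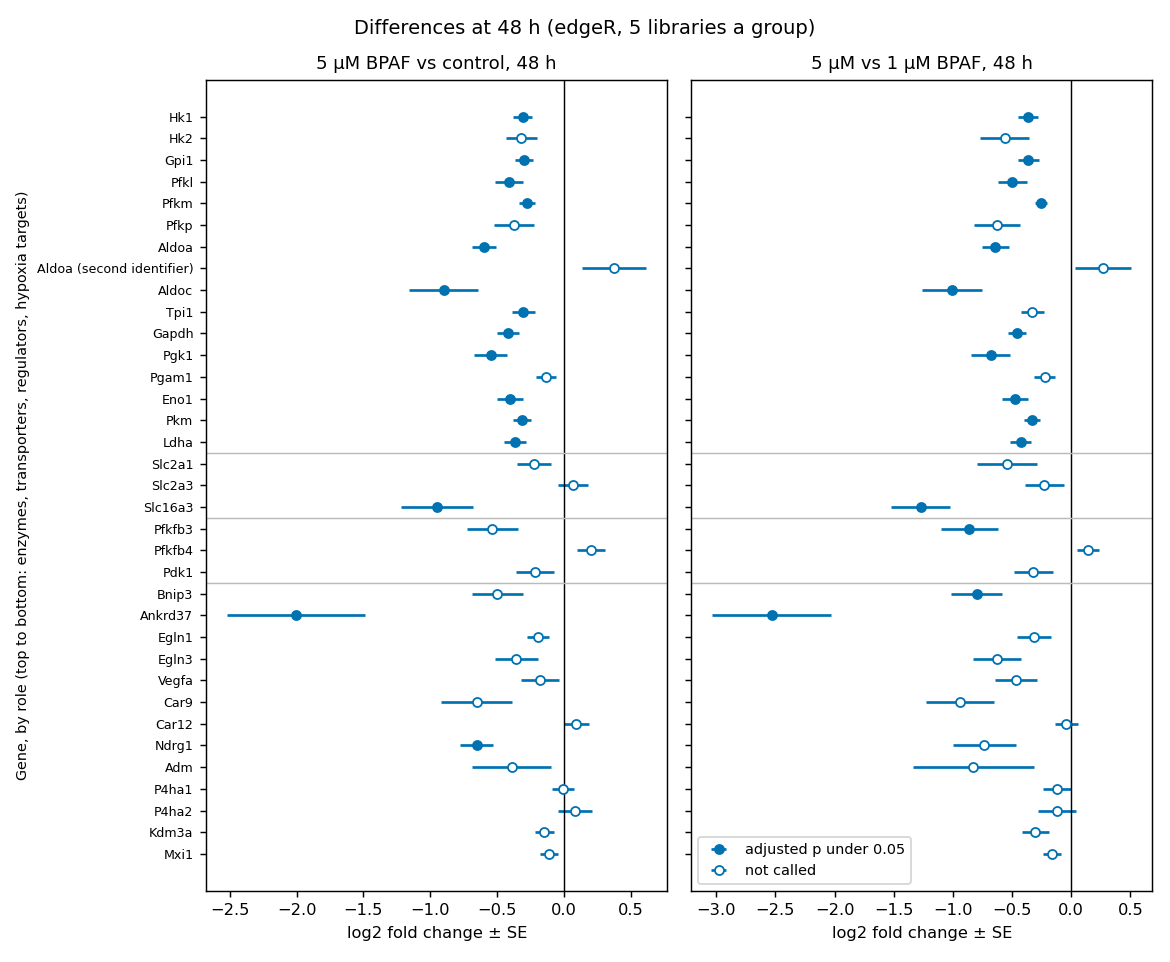
log2 fold change ± SE of each row at 48 h, for 5 µM against control and 5 µM against 1 µM BPAF, by role from enzymes to hypoxia targets, filled where the adjusted p is under 0.05. Each panel has 15 filled points, all left of 0, of which 12 and 11 are rows of enzymes.

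Of the carriers, Slc16a3 was called lower. It stood at 14.1, 16.1, 17.7, 15.1 and 16.4 CPM in 5 µM limbs, against 26.6, 50.4, 13.6, 45.3 and 16.9 CPM in control limbs. The 5 µM libraries lay close together, with control replicate 3 below them and replicate 5 among them (log2 -0.95 ± 0.27, adjusted p 0.0428 by edgeR). The call was kept in 2 of the 10 fits that left out 1 library, and lost with all 45 libraries in one fit (adjusted p 0.0666 by edgeR) and by DESeq2 (adjusted p 0.0870). The glucose carriers Slc2a1 (log2 -0.23 ± 0.13) and Slc2a3 (0.07 ± 0.11) were not called. Of the flux regulators, Pdk1, the kinase that keeps pyruvate out of the TCA cycle, stood at 70.2, 65.3, 51.1, 67.5 and 48.1 CPM in 5 µM limbs, against 82.8, 78.0, 57.6, 82.0 and 47.9 CPM in control limbs. Its groups overlapped (log2 -0.22 ± 0.14, adjusted p 0.448 by edgeR), and Pfkfb3 (log2 -0.54 ± 0.19) and Pfkfb4 (0.20 ± 0.10) were not called either.

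Fewer hypoxia targets were called. Ndrg1 stood at 25.9, 26.4, 28.4, 25.5 and 26.8 CPM in 5 µM limbs, against 41.4, 56.5, 32.8, 43.5 and 33.2 CPM in control limbs. The groups were separate (log2 -0.65 ± 0.12, adjusted p 0.00227 by edgeR), and the call was kept in all 10 fits that left out 1 library. With all 45 libraries in one fit the Ndrg1 call was lost (log2 -0.64, adjusted p 0.212 by edgeR). Ankrd37 stood at 0.519, 1.09, 0.954, 0.576 and 0.427 CPM in 5 µM limbs, against 2.40, 5.45, 0.363, 4.36 and 1.69 CPM in control limbs. Control replicate 3 held the lowest value of all (log2 -2.003 ± 0.52, adjusted p 0.0230 by edgeR), and the call was kept in 5 of those 10 fits. The remaining 11 targets were not called: Car9 (log2 -0.65 ± 0.27) and Bnip3 (-0.50 ± 0.19) lay lowest among them, and Car12 (0.09 ± 0.09), the collagen hydroxylase P4ha2 (0.08 ± 0.13) and P4ha1 (-0.01 ± 0.08) close to 0. Vegfa had a log2 fold change of -0.18 ± 0.14, and the prolyl hydroxylases Egln1 and Egln3, which mark HIF, of -0.20 ± 0.08 and -0.36 ± 0.16.

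**Figure D4:**
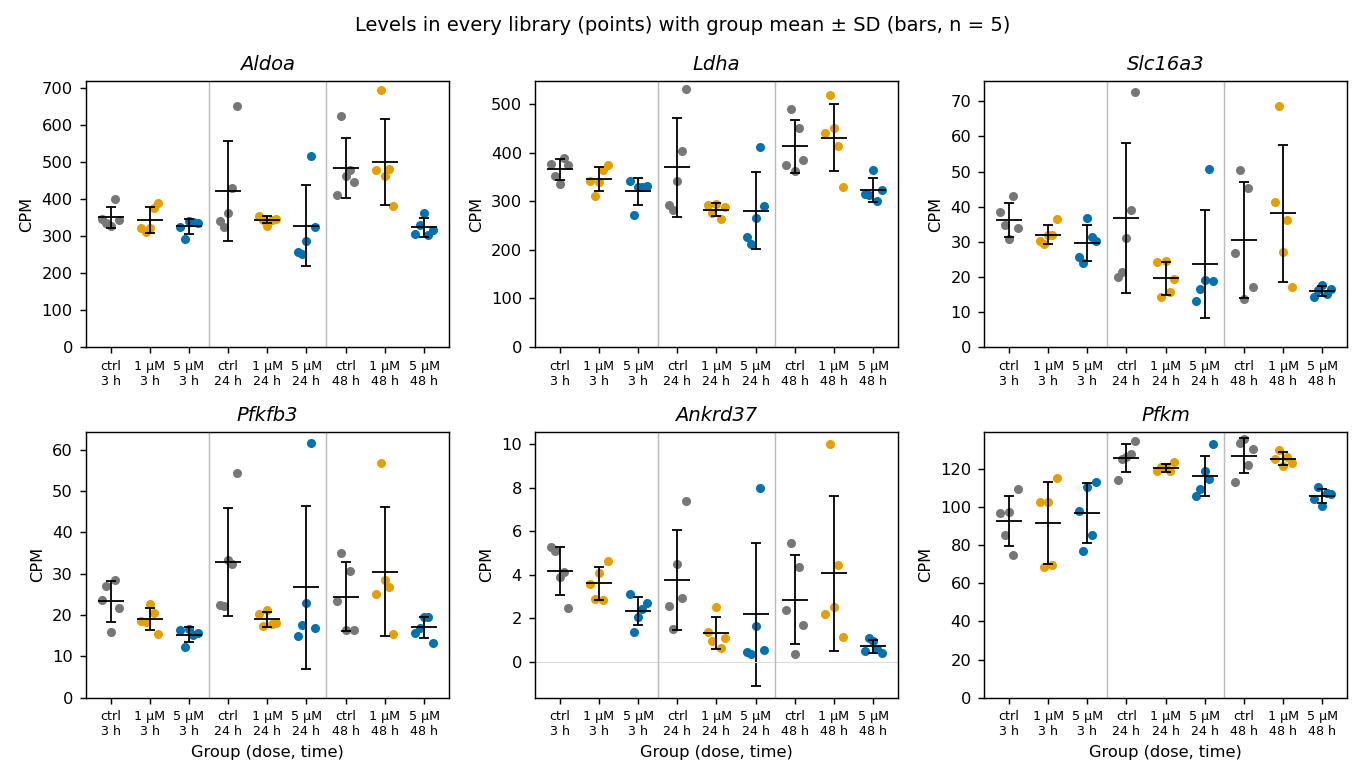
CPM in every library (points) with the group mean ± SD for Aldoa, Ldha, Slc16a3, Pfkfb3, Ankrd37 and Pfkm, at control, 1 µM and 5 µM within 3, 24 and 48 h. The 5 µM libraries of 48 h lie close together and low, while at 24 h a control library and a 5 µM library stand at 1.68 times or more the median of the others for each gene but Pfkm. At 48 h 1 µM replicate 2 stands at 1.05 (Pfkm), 1.21 (Ldha), 1.48 (Aldoa) and up to 4.27 times (Ankrd37).

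The number of member calls at 48 h changed with the libraries fitted. Control 48 h replicates 2 and 4 had 30 and 29 of 35 rows above the highest 5 µM library, against 23, 9 and 15 rows in replicates 1, 3 and 5. Without replicate 4, 9 members were called, with Pfkl, Aldoc, Tpi1, Eno1, Slc16a3 and Ankrd37 lost. Without replicates 2 and 4 together, a choice made after the data were seen, 4 members were called lower, namely Pfkm, Aldoa, Gapdh and Ndrg1, and P4ha2 was called higher (log2 0.35, adjusted p 0.0115 by edgeR). Over all genes that fit called 742, against 1171 with every library, and fits without 1 library called 912 to 1153. The part of the smaller number of libraries in these counts was not tested. Without 5 µM 48 h replicate 5, 10 members were called. A fit of all 45 libraries together called 6, which were Hk1, Aldoa, Aldoc, Gapdh, Pkm and Ankrd37.

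Genes of other cell types also differed at 48 h. Of 24 skeletal muscle genes 22 were lower in 5 µM limbs, with a median log2 fold change of -1.03, among them the satellite cell factor Pax7 (log2 -1.99 ± 0.13, adjusted p 1.06e-07 by edgeR) and the slow myosin Myh7 (log2 -1.75 ± 0.13). The summed level of the list ran from 3451 to 4178 CPM in 5 µM limbs and from 6210 to 9661 CPM in control limbs. Of 12 macrophage genes 9 were lower (median -0.69), with sums from 179.1 to 212.1 CPM in 5 µM limbs and from 275.6 to 364.3 CPM in control limbs. Of 12 endothelial genes 3 were lower, of 8 erythroid genes tested 1, of 12 epidermal genes 2 and of 16 chondrocyte genes 0. The part of fewer muscle or macrophage transcripts in the enzymes' difference was not tested.

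Muscle isozymes outside the 34 genes differed by more than most members. The enolase Eno3 averaged 43.1 ± 2.84 CPM in 5 µM limbs and 70.4 ± 7.06 CPM in control limbs (SD, n = 5 each; log2 -0.72 ± 0.08, adjusted p 8.32e-06 by edgeR). The mutase Pgam2 averaged 21.1 ± 2.95 CPM in 5 µM limbs and 47.7 ± 11.8 CPM in control limbs (log2 -1.20 ± 0.15, adjusted p 5.03e-05 by edgeR). They were the 2 calls among 14 other glycolytic isozymes tested.

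Around the pathway, some genes were lower at 48 h, where 4.42% of all genes tested were. Of 11 genes of the HIF system 1 (9.09%) was lower, the asparaginyl hydroxylase Hif1an, with 127 ± 5.47 CPM in 5 µM limbs and 149 ± 11.1 CPM in control limbs (log2 -0.24 ± 0.06, adjusted p 0.0173 by edgeR). Of 24 further hypoxia targets tested 4 (16.7%) were lower, among them the glycogen-targeting subunit Ppp1r3c (log2 -0.39 ± 0.10), the VEGF receptor Flt1 (-0.44 ± 0.12) and the mitochondrial protein Higd1a (-0.44 ± 0.13), and the list's median was -0.04. Of 25 genes of pyruvate entry and the TCA cycle 2 (8%) were lower, Sdhd, a subunit of succinate dehydrogenase (-0.26 ± 0.07), and Dlat, a subunit of pyruvate dehydrogenase (-0.23 ± 0.06). Of 7 genes of the pentose phosphate pathway 0 were called.

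Against 1 µM BPAF at 48 h, 5 µM limbs had 15 members lower and 0 higher, where 5.96% of the 16349 genes tested were called and 3.77% were called lower. The median log2 fold change was -0.46, against 0 to 2 decimals over all genes. This comparison shares its 5 µM libraries with that against control. The calls fell on 11 rows of enzymes, Slc16a3, Pfkfb3, Bnip3 and Ankrd37. In 5 rows the groups did not overlap, all lower in 5 µM limbs, namely Hk1, Pfkm, Aldoa, Gapdh and Ankrd37, where 3.6% of all genes were separate in that direction.

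Aldoa stood at 479, 695, 462, 481 and 380.3 CPM in the 1 µM libraries, all above the 5 µM libraries given above (log2 -0.64 ± 0.11, adjusted p 0.00172 by edgeR). Gapdh stood at 774, 1000.3, 793, 857 and 709 CPM in the 1 µM libraries, again without overlap (log2 -0.46 ± 0.08, adjusted p 0.000975 by edgeR). Pfkm stood at 125, 130.2, 121, 126 and 123 CPM in the 1 µM libraries, with a spread as small as in 5 µM limbs (log2 -0.25 ± 0.05, adjusted p 0.00272 by edgeR). Ldha stood at 442, 519.7, 452, 414 and 329.7 CPM in the 1 µM libraries, of which replicate 5 reached into the 5 µM range (log2 -0.43 ± 0.09, adjusted p 0.00694 by edgeR).

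Slc16a3 stood at 41.3, 68.8, 27.0, 36.1 and 17.0 CPM in 1 µM limbs, with replicate 5 among the 5 µM libraries (log2 -1.27 ± 0.25, adjusted p 0.00432 by edgeR), and was called in all 10 fits that left out 1 library. Pfkfb3 stood at 15.7, 16.9, 19.5, 19.4 and 13.2 CPM in 5 µM limbs, against 25.1, 56.8, 28.4, 26.6 and 15.5 CPM in 1 µM limbs (log2 -0.86 ± 0.24, adjusted p 0.0434 by edgeR), and kept its call in 2 of these 10 fits. Bnip3 stood at 19.8, 24.0, 22.3, 18.9 and 26.5 CPM in 5 µM limbs, against 39.9, 65.2, 34.003, 33.2 and 19.6 CPM in 1 µM limbs (log2 -0.80 ± 0.21, adjusted p 0.0355 by edgeR), and kept its call in 4 of these 10 fits. Without 1 µM replicate 2 the log2 fold change was -0.52 for Bnip3 and -0.51 for Pfkfb3. Both calls were also lost with the log2 of Y-linked reads as a covariate, with all 45 libraries in one fit and by DESeq2. In both genes replicate 5 of the 1 µM group lay within the 5 µM range. Ankrd37 stood at 2.19, 10.0, 2.51, 4.47 and 1.14 CPM in 1 µM limbs, the lowest just above the highest 5 µM library (log2 -2.53 ± 0.50, adjusted p 0.00472 by edgeR), and was called in all 10 fits. Of the called enzymes, Hk1, Pfkm, Aldoa, Gapdh, Eno1, Pkm and Ldha were called in all 10 fits too, Pgk1 in 9, Gpi1 and Pfkl in 7 and Aldoc in 5. With all 45 libraries in one fit, Pfkm (adjusted p 0.167) and Gpi1 (0.0697 by edgeR) were not called. With the Y-linked covariate, Gpi1 (adjusted p 0.0507) and Aldoc (0.0684 by edgeR) were not called.

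The 1 µM group held both extremes. Its replicate 5 was at or below the highest 5 µM library in 29 of 35 rows, while replicate 2 was above it in 33. Without 1 µM 48 h replicate 5, 22 members were called. Without 5 µM 48 h replicate 1, 9 were called. Over all genes, fits without 1 library called 718 to 948, against 974 with every library.

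Between 1 µM and control limbs no member was called at any time. Over all genes edgeR called 0% at 3 h (424 genes at an unadjusted p under 0.05), 0.00608% or 1 gene at 24 h (439 unadjusted) and 0% at 48 h (621 unadjusted), and DESeq2 called 0, 2 and 4 genes. At 24 h the log2 fold change was negative in all 35 rows, with a median of -0.33 and 21 rows at an unadjusted p under 0.05. Control 24 h replicate 5, which stands apart, is part of that comparison. Pfkfb3 stood at 20.2, 17.4, 21.3, 17.7 and 17.9 CPM in 1 µM limbs, against 22.3, 22.2, 33.2, 32.3 and 54.2 CPM in control limbs. It was the only member whose groups did not overlap at 24 h, where 0.207% of all genes were lower without overlap, but it was not called (log2 -0.79 ± 0.19, adjusted p 1.000 by edgeR). At 48 h the log2 fold change was positive in 34 of 35 rows, with a median of 0.12, and 0 rows had an unadjusted p under 0.05. At 3 h the median was -0.03, with 2 rows at an unadjusted p under 0.05.

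At 3 h, 5 µM limbs had 0 of 35 members called against control by edgeR, where 0.18% of the 16651 genes tested were called. In 29 of 35 rows the log2 fold change was negative, with a median of -0.12 against 0 to 2 decimals over all genes, and 13 rows had an unadjusted p under 0.05. Such counts for 5 µM limbs, here and below, are given without the share over all genes and are no result about the members. The lowest adjusted p was that of Pfkfb3, with 16.4, 12.3, 16.7, 15.1 and 15.6 CPM in 5 µM limbs, against 23.6, 27.1, 15.9, 28.4 and 21.7 CPM in control limbs (log2 -0.61 ± 0.13, adjusted p 0.0609 by edgeR). Control replicate 3 lay within the 5 µM range, and without it Pfkfb3 (adjusted p 0.00476) and Bnip3 (0.0446) were called. Bnip3 stood at 24.5, 21.8, 28.2, 23.4 and 23.0 CPM in 5 µM limbs, against 29.9, 35.1, 26.8, 32.3 and 32.4 CPM in control limbs (log2 -0.37 ± 0.08, adjusted p 0.0803 by edgeR). DESeq2 called Pfkfb3, Bnip3 and Pfkl. In Pfkl (log2 -0.22 ± 0.05, adjusted p 0.118) and Pgam1 (log2 -0.16 ± 0.05, adjusted p 0.252 by edgeR) the groups did not overlap, lower in 5 µM limbs, where 0.883% of all genes were separate in that direction.

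Ldha averaged 321 ± 28.0 CPM in 5 µM limbs and 366 ± 22.01 CPM in control limbs at 3 h (SD, n = 5 each; log2 -0.19 ± 0.06, adjusted p 0.307 by edgeR). Slc2a1 averaged 99.3 ± 8.44 CPM in 5 µM limbs and 100.3 ± 4.20 CPM in control limbs (log2 -0.01 ± 0.06, adjusted p 0.975 by edgeR). Vegfa averaged 91.3 ± 4.26 CPM in 5 µM limbs and 104 ± 7.49 CPM in control limbs (log2 -0.18 ± 0.06, adjusted p 0.300 by edgeR). For Slc2a1 the groups lay on top of each other, and for Ldha and Vegfa the shift was too small against the spread to pass the test. Ankrd37 stood at 3.11, 1.36, 2.09, 2.45 and 2.71 CPM in 5 µM limbs, against 5.28, 5.11, 3.90, 4.16 and 2.48 CPM in control limbs (log2 -0.84 ± 0.24, adjusted p 0.234 by edgeR). Between 5 µM and 1 µM limbs at 3 h, 0 members were called by edgeR (0.036% of genes), with 4 rows at an unadjusted p under 0.05. Of the further hypoxia targets, the collagen lysyl hydroxylase Plod2 was lower in 5 µM than in control limbs at 3 h (log2 -0.23 ± 0.05, adjusted p 0.0376 by edgeR).

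At 24 h, 5 µM limbs again had 0 of 35 members called against control by edgeR, where 1.57% of the 16433 genes tested were called, and DESeq2 also called 0. With the Y-linked covariate, Gapdh was called (log2 -0.45, adjusted p 0.0236 by edgeR). In 30 of 35 rows the log2 fold change was negative, with a median of -0.24 against 0 to 2 decimals over all genes, and 4 rows had an unadjusted p under 0.05. Each group holds 1 of the libraries that stand apart. Ldha stood at 226, 213, 265, 412 and 290.3 CPM in 5 µM limbs, against 293, 283, 342, 403 and 532 CPM in control limbs (log2 -0.40 ± 0.18, adjusted p 0.415 by edgeR). Vegfa stood at 116, 109.6, 104, 242 and 99.9 CPM in 5 µM limbs, against 112, 93.5, 127, 119.5 and 231 CPM in control limbs (log2 -0.03 ± 0.26, adjusted p 0.986 by edgeR). In both genes these libraries were the highest of their groups, and the groups overlapped. Without 5 µM 24 h replicate 4, Ankrd37 was called (log2 -2.35, adjusted p 0.0396 by edgeR). With both of these libraries left out, a choice made after the data were seen, 0 members were called.

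Between 5 µM and 1 µM limbs at 24 h, 0 members were called by edgeR (1.19% of genes), with a positive log2 fold change in 25 of 35 rows and 3 rows at an unadjusted p under 0.05. The muscle isozymes Pgam2 (log2 -0.73 ± 0.12, adjusted p 0.00425) and Eno3 (log2 -0.49 ± 0.09, adjusted p 0.0117 by edgeR) were lower in 5 µM than in control limbs at 24 h, as were 15 of 23 muscle genes tested. Of 25 further hypoxia targets tested, Flt1 (log2 -0.58 ± 0.11) and the transferrin receptor Tfrc (-0.43 ± 0.10) were lower than in control limbs. Over all 16433 genes tested against control at 24 h, 1.1% were called lower.

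In control limbs, members moved both ways between 3 and 48 h of culture. At 48 h against 3 h, 7 members were higher and 8 lower, 42.9% of the rows, where 50.9% of the 16539 genes tested were called, 25.6% higher and 25.4% lower. The members' share was near that background and is no result about them. In 5 rows the 48 h libraries were all higher than those of 3 h and in 6 all lower, against 18.7% of all genes in each direction. The median log2 fold change was -0.04. Higher at 48 h were Pfkm, Aldoa and Gpi1 among the enzymes and P4ha1, Egln3, Ndrg1 and Vegfa among the hypoxia targets. Lower were Gapdh, Pkm, Pgam1 and Pgk1, the glucose carriers Slc2a1 and Slc2a3, and Car12 and Mxi1. Of the 10 fits that left out 1 library, Pgk1 was called in 3 and Gpi1 in 7, and without control 48 h replicate 2 the log2 fold change of Gpi1 was 0.12, against 0.19 with it. The other 13 calls were kept in all 10. With all 45 libraries in one fit, Vegfa (adjusted p 0.0766), Ndrg1 (0.106), Pgk1 (0.199) and Gpi1 (0.205 by edgeR) were not called. The calls of Pgk1 and Gpi1 were also lost with the Y-linked covariate, and that of Pgk1 by DESeq2.

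Of the hypoxia targets, P4ha1, which hydroxylates procollagen, had the smallest p. It stood at 110.5, 115, 105, 124 and 103 CPM at 3 h, at 132, 126, 143, 169 and 229 CPM at 24 h and at 184, 225, 181, 207 and 179 CPM at 48 h (log2 0.81 ± 0.07, adjusted p 2.92e-08 by edgeR for 48 h against 3 h). Car12 stood at 40.4, 41.7, 43.9, 49.3 and 46.5 CPM at 3 h, at 32.8, 26.7, 36.6, 29.7 and 36.6 CPM at 24 h and at 31.6, 30.4, 25.4, 29.4 and 25.3 CPM at 48 h (log2 -0.64 ± 0.08, adjusted p 3.29e-06 by edgeR). In neither gene did the 3 h libraries overlap with those of 24 or 48 h. Egln3 averaged 17.0 ± 3.78 CPM at 48 h and 9.04 ± 1.37 CPM at 3 h (SD, n = 5 each; log2 0.91 ± 0.15, adjusted p 5.23e-05 by edgeR). Vegfa averaged 141 ± 39.4 CPM at 48 h and 104 ± 7.49 CPM at 3 h, with overlapping groups (log2 0.45 ± 0.14, adjusted p 0.0122 by edgeR). Ndrg1 (log2 0.59 ± 0.14, adjusted p 0.00183) and Mxi1 (log2 -0.23 ± 0.07, adjusted p 0.00911 by edgeR) also overlapped.

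Among the enzymes Gapdh had the smallest p. It stood at 1181, 1146, 1046, 1275 and 1143 CPM at 3 h, at 734, 719, 695, 878 and 1063 CPM at 24 h and at 660.3, 963, 792, 811 and 785 CPM at 48 h (log2 -0.52 ± 0.08, adjusted p 2.81e-05 by edgeR for 48 h against 3 h). Pkm averaged 634 ± 69.6 CPM at 48 h and 869 ± 63.5 CPM at 3 h (SD, n = 5 each; log2 -0.45 ± 0.07, adjusted p 4.84e-05 by edgeR). Both were lower at 48 h in every library than in any library of 3 h. Pfkm averaged 127 ± 9.23 CPM at 48 h and 92.7 ± 13.2 CPM at 3 h, a difference in the other direction (log2 0.46 ± 0.09, adjusted p 0.000226 by edgeR). Aldoa averaged 484 ± 81.9 CPM at 48 h and 351 ± 28.4 CPM at 3 h (log2 0.47 ± 0.09, adjusted p 0.000280 by edgeR). Pfkm and Aldoa were higher without overlap. The muscle isozymes Eno3 (log2 1.39 ± 0.08) and Pgam2 (1.83 ± 0.15) and 23 of 24 muscle genes were higher at 48 h as well, and 15 of 16 chondrocyte genes were higher and 10 of 11 erythroid genes lower. The part of these cell types in the members' changes was not tested.

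The glucose carriers were lower at 48 h. Slc2a3, the high-affinity carrier, stood at 46.2, 42.4, 30.6, 50.9 and 37.9 CPM at 48 h, against 62.3, 64.2, 68.98, 86.4 and 82.0 CPM at 3 h (log2 -0.80 ± 0.11, adjusted p 1.34e-05 by edgeR). Slc2a1 stood at 68.1, 91.8, 52.7, 80.4 and 50.9 CPM at 48 h, against 105, 99.3, 101, 103 and 93.7 CPM at 3 h (log2 -0.54 ± 0.12, adjusted p 0.00120 by edgeR). Both were separate between the times. Pdk1 averaged 69.7 ± 15.9 CPM at 48 h and 68.4 ± 4.22 CPM at 3 h (log2 0.03 ± 0.12, adjusted p 0.863 by edgeR), with a wider spread at 48 h. Of 11 genes of the HIF system 3 were higher and 4 lower, among them Arnt2, a partner of HIF (log2 -0.91 ± 0.06), the HIF coactivator antagonist Cited2 (-0.46 ± 0.07) and Hif1an (0.32 ± 0.06). Of 24 further hypoxia targets 12 were higher and 5 lower, among them the collagen cross-linker Lox (0.97 ± 0.07), the mTORC1 inhibitor Ddit4 (-0.93 ± 0.08) and Plod2 (0.69 ± 0.07).

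**Figure D5:**
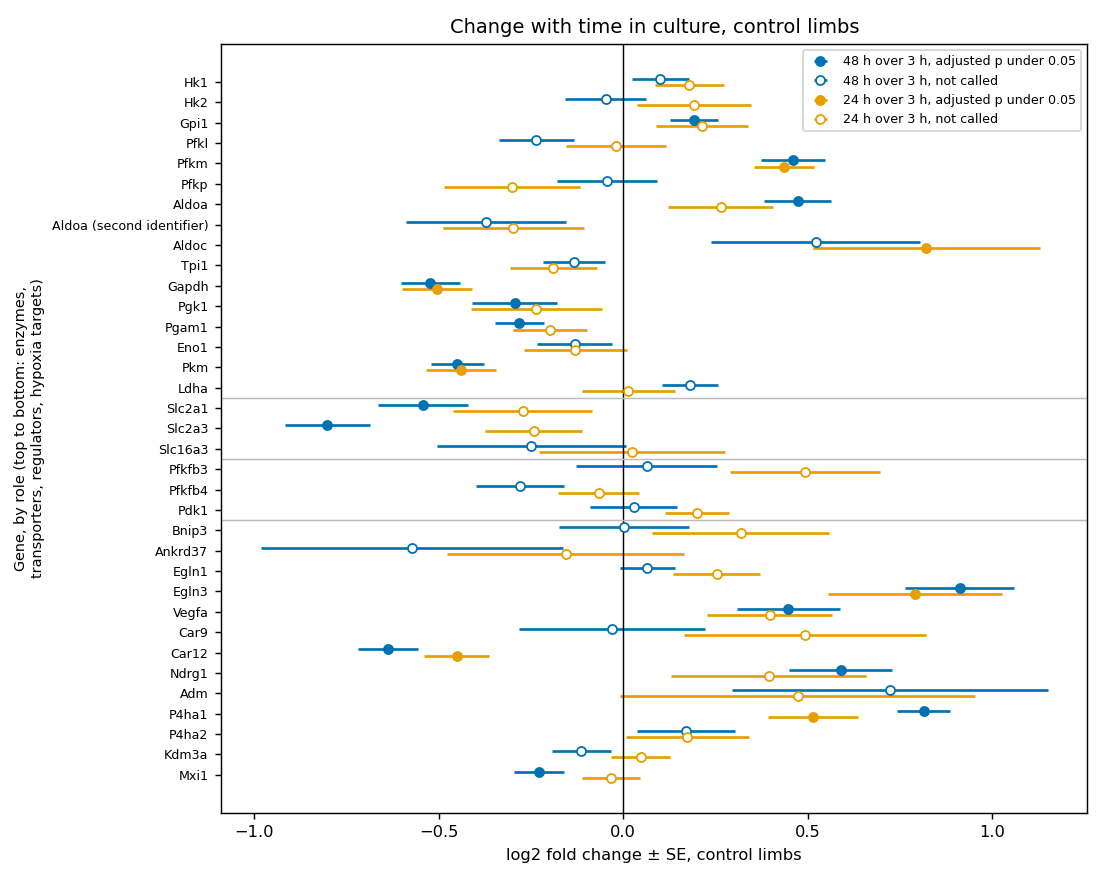
log2 fold change ± SE of each row in control limbs at 48 h and at 24 h over 3 h, by role, filled where the adjusted p is under 0.05. At 48 h over 3 h, 7 filled points lie right of 0 and 8 left of it, and enzymes and hypoxia targets are found on both sides.

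At 24 h against 3 h, Pfkm (log2 0.44 ± 0.08), Aldoc (0.82 ± 0.31), Egln3 (0.79 ± 0.24) and P4ha1 (0.51 ± 0.12) were called higher and Gapdh (-0.51 ± 0.09), Pkm (-0.44 ± 0.09) and Car12 (-0.45 ± 0.09) lower, 7 of 35 rows, where 37.8% of the 16481 genes tested were called, 19.1% higher and 18.7% lower. Pfkm and P4ha1 were higher without overlap, as were 13.4% of all genes, and Car12 lower, as were 12.6%. Without control 24 h replicate 5, 13 members were called, with Aldoc lost (log2 0.52), and Slc2a1 then had a log2 fold change of -0.56 (adjusted p 0.000511 by edgeR) in place of -0.27 ± 0.19. Aldoc was called in 4 of the 10 fits that left out 1 library, and the other 6 members in all 10. With the Y-linked covariate, Aldoc (adjusted p 0.0807) and Egln3 (0.0681 by edgeR) were not called. Without control 24 h replicate 2, 11 were called. Over all genes, fits without 1 library called 5582 to 6399, against 6227 with every library. At 48 h against 24 h Slc2a3 was called (log2 -0.57 ± 0.15, adjusted p 0.0162 by edgeR) and no other member, where 16.3% of the 16445 genes tested were called and 6.57% were called lower. Without control 24 h replicate 5, Aldoa (log2 0.40), Ndrg1 (0.61) and P4ha1 (0.45) were called higher at 48 h as well, and 2 members were called without control 24 h replicate 2 or without control 48 h replicate 4.

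Whether the 5 µM effect differed between times was tested as an interaction. Between 48 h and 3 h, 1 of 35 members was called, Aldoa, where 2.8% of the 17558 genes tested were called and 2.04% were called with a more negative effect at 48 h. Its log2 difference from control was -0.60 ± 0.09 at 48 h and -0.10 ± 0.05 at 3 h, and the difference between these effects was -0.48 ± 0.12 (adjusted p 0.0156 by edgeR, n = 5 a group). The call held when any of the 20 libraries was left out, but was lost in the fit of all 45 libraries (log2 -0.48, adjusted p 0.311 by edgeR). When control 48 h replicates 2 and 4 were left out together the difference was -0.34 (adjusted p 0.0517 by edgeR) and P4ha2 was called in its place (log2 0.45). Without control 48 h replicate 1, Gapdh was called too. Between 24 h and 3 h and between 48 h and 24 h, edgeR called 0 members (0.336% of 17535 and 0.0693% of 17315 genes), DESeq2 called 0, and 0 rows had an unadjusted p under 0.05. The effects of 24 and 48 h are thus not shown to differ, although members were called at 48 h and not at 24 h. Outside the 34 genes, Eno3 (log2 -0.76 ± 0.11) and Pgam2 (-1.33 ± 0.19) were called lower between 48 h and 3 h, and Ddit4 (log2 0.42 ± 0.10) and Pgd of the pentose phosphate pathway (0.27 ± 0.07) higher.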

How the data were processed

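Messenger RNA of 45 forelimb libraries was captured on poly-T beads, per the labels' protocols. CASAVA 1.8, STAR 2.5, HTSeq 0.6.1, DESeq2 and the build mm10 are named in the submitters' processing notes. How reads that fit several places were counted, and the strand setting, are not given in the sources used here. The authors deposited 9 tables of 10 libraries, each with raw read counts per gene, a signal that is the count divided by a size factor, FPKM, and the authors' log2 fold changes and p-values, per the file headers. Only the raw counts and gene lengths were used here.

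Counts were joined by gene identifier. Gene and library combinations absent from a table, 11.7002% of all, were read as 0. Each pair of groups was fitted on its own 10 libraries with edgeR 4.0.16 (R 4.3.3, limma 3.58.1): TMM scaling, filterByExpr with a count minimum of 10 per library and a summed minimum of 15, the quasi-likelihood F-test and Benjamini-Hochberg adjustment over all genes, with calls at an adjusted p under 0.05. Interactions were fitted on 20 libraries. The SE is the absolute log2 fold change over the square root of F. CPM are scaled by TMM over all 45 libraries. The scripts were tested on simulated data.

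Alternatives were RLE size factors, DESeq2 1.42.0, no filter on low counts, the replicate number as a block, the log2 of Y-linked reads (pseudocount 0.5) as a covariate, all 45 libraries in one fit, and each library left out in turn. Leaving out pairs of libraries was added after the data were seen. The labels do not say that replicate numbers pair the groups. Same-numbered libraries correlated above 0.1 in every pair for 1 µM against control at 24 h (lowest r 0.1143) and for no other comparison. The members, lists and tests were chosen with earlier results of these data known. Any member may be named. Values in every library went mainly to called members with the smallest p in each role, otherwise to 8 set genes (Ldha, Pgk1, Aldoa, Slc2a1, Pdk1, Bnip3, Vegfa and Ankrd37), and up to 3 called genes were named from other pathway lists and up to 2 from cell type lists. Other members shown by library or in examples of single libraries were picked after their values were seen.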

Additional observations from a re-analysis of the deposited data

Results flagged for a closer look

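Over the 35 rows and 9 groups, 315 sets of 5 libraries were examined for a library far from the others, taken as a gap to the nearest library above 0.71 of the whole range. There were 34 such sets. Chance gives about 1 in 20 for independent sets of normal values, but the rows share the same libraries and are not independent. The share over all genes is not given here. The 34 sets were not spread evenly: 18 fell on 5 µM 24 h replicate 4, 6 on 1 µM 48 h replicate 2 and 3 on control 24 h replicate 5, all of them high. These libraries were already named above for high member values, so the flags are no separate support.

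In 5 µM 24 h replicate 4 the enzymes Hk2 (72.5 CPM), Pfkp (28.98 CPM), Aldoa (515.6 CPM) and Pgk1 (318.1 CPM) stood far above the other libraries, as did the carriers Slc2a1 (127.7 CPM), Slc2a3 (92.2 CPM) and Slc16a3 (50.65 CPM) and the regulator Pfkfb3 (61.6 CPM). The hypoxia targets in this library were Bnip3 (55.75 CPM), Ankrd37 (7.98 CPM), Egln1 (125.5 CPM), Egln3 (26.97 CPM), Vegfa (241.9 CPM), Car9 (6.84 CPM), Ndrg1 (62.6 CPM), Adm (3.22 CPM), P4ha1 (214.3 CPM) and P4ha2 (124.6 CPM). In 1 µM 48 h replicate 2 they were Hk1 (140.2 CPM), Hk2 (73.94 CPM), Slc2a1 (180.6 CPM), Ndrg1 (91.04 CPM), Adm (8.04 CPM) and P4ha2 (140.8 CPM), and in control 24 h replicate 5 Gpi1 (462.0 CPM), Vegfa (231.3 CPM) and Ndrg1 (74.6 CPM).

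The remaining sets were scattered. The rule sets the gap against the range of the 5 libraries, so it can flag a small difference in a tight group. Hk2 (27.98 CPM, nearest library 31.7) and Ldha (271.6 CPM, nearest 329.8) were flagged low in 5 µM 3 h replicate 2. Pfkl (92.2 CPM, nearest 89.6) and Adm (2.11 CPM, nearest 1.51) were flagged high in 5 µM 48 h replicate 4. So were the second Aldoa identifier (3.79 CPM, nearest 2.12) in 5 µM 24 h replicate 5 and Gpi1 (358.2 CPM, nearest 291.2) in control 48 h replicate 2. Aldoa (399.5 CPM, nearest 347.1) was flagged high in control 3 h replicate 4.

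The effect of 5 µM BPAF on Aldoa differed between times in the fit of these 4 groups, with a log2 effect at 48 h minus that at 3 h of -0.48 (interaction test, adjusted p 0.0156 by edgeR). This call was lost with all 45 libraries in one fit (log2 -0.48, adjusted p 0.311 by edgeR) and without control 48 h replicates 2 and 4 (log2 -0.34, adjusted p 0.0517 by edgeR). Aldoa was lower than every control library in all 5 of the 5 µM libraries at 48 h.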

How the results depend on the processing

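For the 54 called pairs of a member and a comparison, the alternatives gave 340 values, not counting the fits that left out 1 library. Of these values 298 were called in the same direction, 42 were not called and 0 changed sign. The fits that left out 1 library lost further calls, as given above for each comparison. RLE size factors changed no member call, and all 315 group means stayed within 1 SD. For 5 µM against control, member calls at 3 h were 0, against 2 without the filter, 2 with the Y-linked covariate (Pfkfb3 and Bnip3 in both) and 3 by DESeq2. At 24 h they were 0, against 3 with the replicate block (Gapdh, Eno1 and Ldha, adjusted p 0.00440, 0.0414 and 0.0144 by edgeR; of the 5 same-numbered pairs 4 correlated above 0.1 and 1 at -0.0328) and 1 with the Y-linked covariate. At 48 h they were 15, against 6 with all 45 libraries in one fit and 5 without control replicates 2 and 4. Without the filter 1 member was called for 1 µM against control at 24 h (Pfkfb3) and 1 for 5 µM against 1 µM at 24 h (P4ha2). For control limbs at 48 h against 24 h, 2 were called with the replicate block and 2 with all 45 libraries. For the 5 µM effect at 48 h minus 3 h, 0 were called with all 45 libraries and 2 by DESeq2. Leaving out 1 library at a time gave, for 5 µM against control, 0 to 2 calls at 3 h, 0 to 1 at 24 h and 9 to 17 at 48 h, and for 1 µM against control 0 to 0 at every time. For 5 µM against 1 µM it gave 0 to 0 at 3 h, 0 to 1 at 24 h and 9 to 22 at 48 h. For control limbs it gave 6 to 13 at 24 h against 3 h, 1 to 4 at 48 h against 24 h and 13 to 17 at 48 h against 3 h, and for the 5 µM effect 0 to 0 at 24 h minus 3 h, 0 to 0 at 48 h minus 24 h and 1 to 2 at 48 h minus 3 h. The replicate block moved no other count of member calls by over 1.5 times, and member calls of the comparison that met the pairing rule, 1 µM against control at 24 h, were 0 with and without it. Over all genes, the counts that moved by over 1.5 times in a fit on all libraries of the groups, or without the pairs of libraries named, were, at 3 h for 5 µM against control, 30, against 79 without the filter, 62 with the block and 115 by DESeq2, at 24 h 258, against 655 with the block, 434 with the covariate, 587 with all libraries and 517 by DESeq2, and at 48 h 1171, against 742 without control replicates 2 and 4. For 1 µM against control they were, at 24 h, 1, against 3 without the filter, 2 with the block and 2 by DESeq2, and at 48 h 0, against 1 without the filter and 4 by DESeq2. For 5 µM against 1 µM they were, at 3 h, 6, against 25 without the filter, 50 with the block, 12 with all libraries and 40 by DESeq2, and at 24 h 196, against 319 with the block, 330 with the covariate, 348 with all libraries and 339 by DESeq2. For the 5 µM effect they were, at 24 h minus 3 h, 59, against 35 with the covariate and 149 by DESeq2, and at 48 h minus 24 h 12, against 27 without the filter, 28 with the block, 38 with all libraries, 50 by DESeq2 and 2 without both 24 h libraries that stood apart. Leaving out 1 library at a time gave, over all genes, 15 to 45 for 5 µM against control at 3 h and 109 to 498 at 24 h, 0 to 1 for 1 µM against control at 3 h, 1 to 9 for 5 µM against 1 µM at 3 h and 95 to 553 at 24 h, and 30 to 109 and 2 to 17 for the 5 µM effect at 24 h minus 3 h and at 48 h minus 24 h. For 5 µM against control and against 1 µM at 24 h, and for the effect at 24 h minus 3 h, the highest count was without 5 µM 24 h replicate 5 and the lowest without its replicate 1. The causes were not tested. Adm, Ankrd37, Car9, Aldoc and the second Aldoa identifier averaged under 5 CPM, so their differences are the least precise.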
